A study of Bos taurus with 6 samples.

Results

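The genes described here encode 10 enzymes that make serine, asparagine or proline or that handle one-carbon units of the mitochondrial and cytosolic folate pools. Their expression was measured in cultured bovine granulosa cells (GC), the hormone-producing cells that line the ovarian follicle. The genes were taken by gene symbol from a table of 26773 transcript clusters, the array's unit for a gene. Each of the 10 symbols matched exactly 1 transcript cluster, and 0 rows with several symbols contained one of them.

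Serine is made from the glycolytic intermediate 3-phosphoglycerate by the successive action of PHGDH, PSAT1 and PSPH. SHMT1 in the cytosol and SHMT2 in mitochondria split serine into glycine and a one-carbon unit carried by folate, MTHFD2 oxidises that unit in mitochondria, and ALDH1L2 releases it as carbon dioxide with formation of NADPH. ASNS transfers the amide nitrogen of glutamine to aspartate, and ALDH18A1 and PYCR1 catalyse the first and the last step from glutamate to proline, an amino acid that is abundant in collagen. Several of these genes, ASNS, PSAT1 and MTHFD2 among them, are known targets of the transcription factor ATF4, which cells use when amino acids run short or proteins misfold.

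RNA came from 6 cultures of primary GC, 3 of normal and 3 of high plating density, and each culture was hybridized to its own Bovine Gene 1.0 ST Array. The cells were cow material from abattoir ovaries, pooled over many follicles and animals of undefined cycle stage, and stored frozen before plating. Both groups stayed for 9 days in serum-free α-MEM with FSH, IGF-1 and androstenedione, so these agents were common to all samples, as were the L-glutamine and the non-essential amino acids of the medium. More cells were placed in each well at high density, and the labels give no other difference between the groups. The labels number the samples of a group but do not say whether they came from separate cell pools, so the p-values measure the spread between these samples, which may be partly technical.

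Signals are log2 values made by the authors with RMA, and the medians of the arrays were between 4.34 and 4.43. The background level was set at 4.62, the 95th percentile of the 82 reporter control rows. Changes are log2 differences, high minus normal density, from limma with Benjamini-Hochberg adjustment over the whole table. A transcript cluster was called when its fold change exceeded 1.5 in size, which is 0.58 on the log2 scale, with p and FDR below 0.05. Means carry the SD over 3 cultures and changes the standard error (SE). With 6 arrays in all, precision is bounded by their number. An array signal is a share of the RNA applied, so more cells of one kind and more RNA per cell cannot be told apart.

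PYCR1, ALDH1L2, PSAT1, PSPH and MTHFD2 rose at high density, by between 1.87-fold and 3.69-fold. PHGDH, ASNS, ALDH18A1 and SHMT2 were higher as well and passed the FDR threshold, but stayed below the fold change of 1.5. SHMT1 was below the background level in both groups. Thus 5 of the 10 genes were called higher and 0 lower, while 3.97% of all transcript clusters were called higher, 7.49% in either direction. Among the 13077 transcript clusters above the background level, 6.97% were called higher, and the 5 genes belong to the 9 of the group that are above it. At any fold, 9 of the 10 passed the FDR threshold with a higher signal, compared with 8.64% of the table. In the same 9 genes every high density culture was above every normal density culture, which was so for 17.8% of the table, and the reverse order, found in 19.5% of the table, occurred in 0 of the 10. The median change of the 10 genes was 0.70 on the log2 scale and that of all transcript clusters 0.02. The difference was positive in all 10 genes, and 0 were lower at an unadjusted p below 0.05 or in the methods' t-test.

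**Figure D1:**
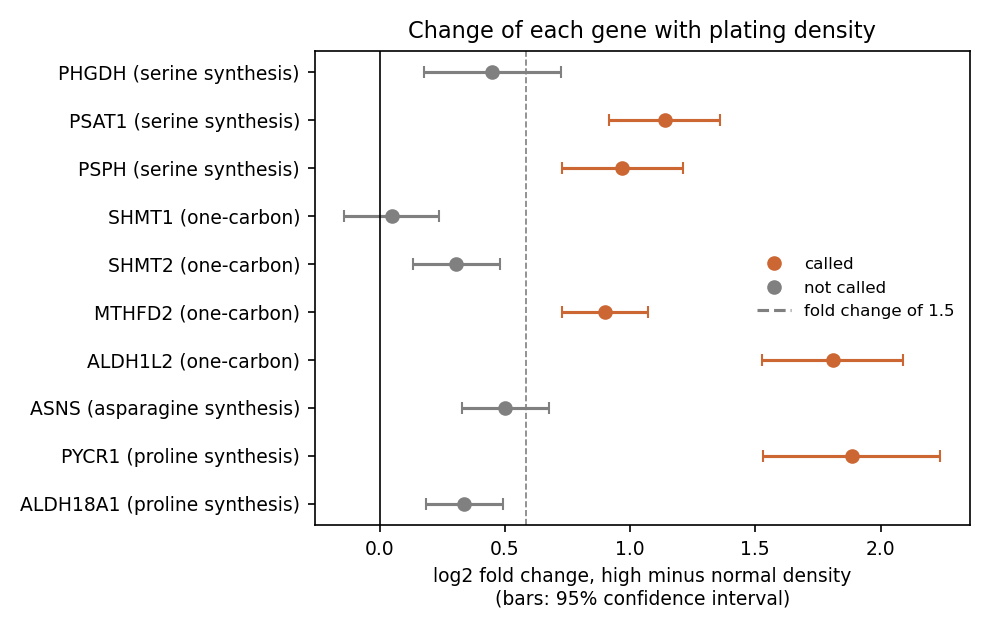
Log2 fold change between high and normal density for each of the 10 genes, with 95% confidence intervals from limma (3 cultures per group). The 5 called genes lie between 0.90 and 1.88, to the right of the dashed line at a fold change of 1.5, and the interval of SHMT1 includes 0.

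In the serine branch, the second and the third enzyme changed more than the first. PSAT1 (phosphoserine aminotransferase, transcript cluster 12891041) had log2 signals of 8.07, 8.14 and 8.12 in the normal density cultures and of 9.06, 9.38 and 9.31 in the high density cultures. The normal density signals were close together, and the lowest high density culture was 0.92 above the highest of them. The means were 8.11 ± 0.03 and 9.25 ± 0.16 (SD, n = 3), and PSAT1 rose by 1.14 on the log2 scale (SE 0.09, adjusted p = 2.74e-04 by limma), a fold change of 2.20.

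PSPH (12817732), the phosphatase that releases free serine, had signals of 5.92, 5.95 and 6.03 at normal density and of 6.72, 7.04 and 7.04 at high density. Replicate 1 was the lowest of the high density cultures for PSPH as for PSAT1, and the groups were 0.69 apart. PSPH rose by 0.97 (SE 0.10, adjusted p = 8.07e-04 by limma), a fold change of 1.96 with a 95% confidence interval from 1.66 to 2.32.

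PHGDH (12843247), the dehydrogenase that opens the branch, had signals of 8.06, 8.14 and 8.12 in the normal density group and of 8.60, 8.31 and 8.76 in the high density group. The groups did not overlap, but high density replicate 2 was only 0.17 above the highest normal density culture. The change of PHGDH was 0.45 (SE 0.12, adjusted p = 0.0352 by limma), a fold change of 1.37 with an interval from 1.13 to 1.65, so a change above the fold threshold is within the interval. PHGDH did not pass the FDR threshold with the methods' t-test, nor when any single culture except high density replicate 2 was left out. Its change was 0.57 without that culture and between 0.35 and 0.47 without one of the others. The transcript cluster of PHGDH is annotated by an Ensembl transcript, whereas the accessions of the other 9 genes matched the same symbol in RefSeq.

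**Figure D2:**
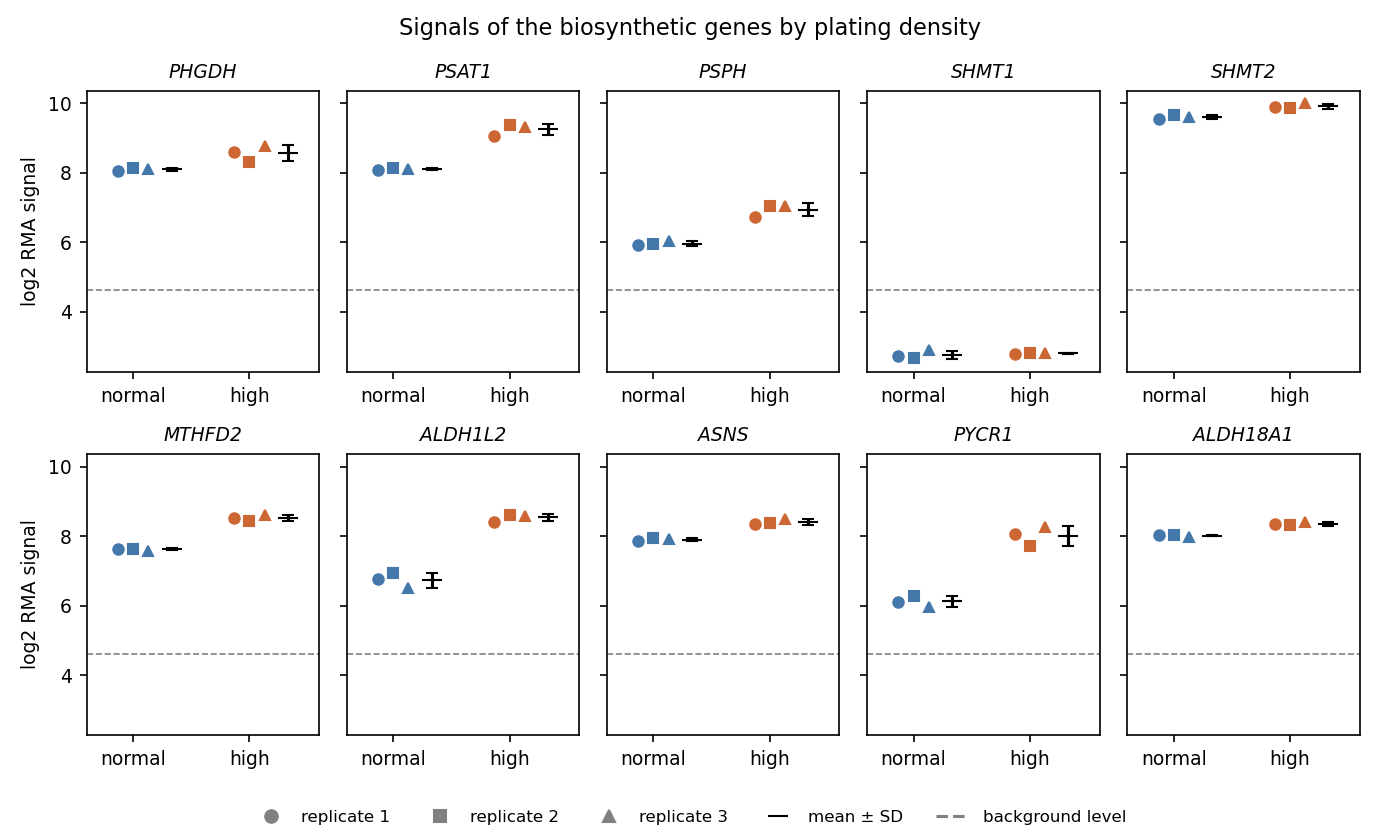
Log2 RMA signals of the 10 genes in the 3 normal density (blue) and 3 high density (orange) cultures, one panel per gene, with group means and SD in black and the background level of 4.62 dashed. The groups are separate in 9 panels, and the signals of SHMT1, between 2.66 and 2.89, are all below the dashed line.

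The genes of mitochondrial one-carbon metabolism differed widely in their change. ALDH1L2 (12866308), a mitochondrial formyltetrahydrofolate dehydrogenase, had signals of 6.76, 6.92 and 6.50 at normal density and of 8.41, 8.61 and 8.59 at high density. It had the widest spread of the 10 genes among the normal density cultures, with means of 6.73 ± 0.21 and 8.53 ± 0.11 (SD, n = 3). ALDH1L2 rose by 1.81 (SE 0.12, adjusted p = 1.12e-04 by limma), a fold change of 3.50, which ranked 109th among the increases of the whole table.

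MTHFD2 (12706002), the dehydrogenase and cyclohydrolase of the mitochondrial folate pathway, was at 7.64, 7.64 and 7.58 at normal density. At high density the signals of MTHFD2 were 8.52, 8.43 and 8.60. Its cultures were close together within each group, with SD of 0.03 and 0.08, and the groups were 0.79 apart. MTHFD2 rose by 0.90 (SE 0.07, adjusted p = 2.43e-04 by limma), a fold change of 1.87.

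SHMT2 (12864912), the mitochondrial serine hydroxymethyltransferase, had signals of 9.54, 9.67 and 9.62 at normal density and of 9.89, 9.86 and 9.998 at high density. The separation of the groups, 0.19, was small beside that of MTHFD2. The change of SHMT2 was 0.31 (SE 0.07, adjusted p = 0.0274 by limma), a fold change of 1.24 with an interval from 1.10 to 1.40, which ends below the fold threshold. Like PHGDH, SHMT2 lost the FDR threshold when any single culture except high density replicate 2 was left out, with changes between 0.26 and 0.34 over all of these settings.

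SHMT1 (12762386), the cytosolic counterpart, had signals of 2.71, 2.66 and 2.89 in the normal and of 2.77, 2.82 and 2.82 in the high density cultures. The groups overlapped and all 6 signals were below the background level. The change of SHMT1 was 0.05 (SE 0.08, adjusted p = 0.735 by limma), with an interval from −0.14 to 0.24, but a change of a transcript below the background level is not measured well by the array.

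ASNS (12854099), asparagine synthetase, had signals of 7.85, 7.94 and 7.91 at normal density and of 8.35, 8.36 and 8.50 at high density. All high density cultures were at least 0.40 above the normal density cultures, and the SD were 0.04 and 0.08. The change of 0.50 (SE 0.07, adjusted p = 0.00338 by limma) was a fold change of 1.42. The interval of the log2 change, from 0.33 to 0.68, includes the threshold of 0.58. ASNS was past the FDR threshold in every setting tried but called in none.

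For proline, the last enzyme changed far more than the first. PYCR1 (12765029), the mitochondrial pyrroline-5-carboxylate reductase, had signals of 6.12, 6.28 and 5.95 at normal density and of 8.06, 7.70 and 8.25 at high density. High density replicate 2 was the lowest of its group and still 1.42 above the highest normal density culture. The SD were 0.16 and 0.28. PYCR1 rose by 1.88 (SE 0.15, adjusted p = 2.30e-04 by limma), a fold change of 3.69, the largest of the 10 genes and the 88th increase of the table.

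ALDH18A1 (12822230), the bifunctional enzyme that turns glutamate into the precursor of proline, had signals of 8.02, 8.03 and 7.98 in the normal and of 8.34, 8.30 and 8.40 in the high density cultures. Its SD of 0.02 and 0.05 left the groups 0.27 apart. The change of ALDH18A1 was 0.34 (SE 0.07, adjusted p = 0.0117 by limma), a fold change of 1.26 with an interval from 1.14 to 1.41, below the fold threshold. Without normal density replicate 3 it did not pass the FDR threshold.

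The cultures of the high density group did not rank alike in the different genes. Replicate 3 had the highest signal of its group in 8 of the 10 genes and replicate 2 in the other two, PSAT1 and ALDH1L2, though in PSPH and SHMT1 replicates 2 and 3 were equal after rounding. Replicate 2 was the lowest in PHGDH, SHMT2, MTHFD2, PYCR1 and ALDH18A1, and replicate 1 was the lowest in PSAT1, PSPH, SHMT1, ALDH1L2 and ASNS. Relative to the normal density mean, replicate 2 was higher by 0.20 in PHGDH but by 1.26 in PSAT1, while replicate 1 was higher by 0.49 and 0.95. The SD was larger at high density in 8 of the 10 genes, with medians of 0.05 at normal and 0.10 at high density, and the medians over all transcript clusters were 0.08 and 0.13.

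**Figure D3:**
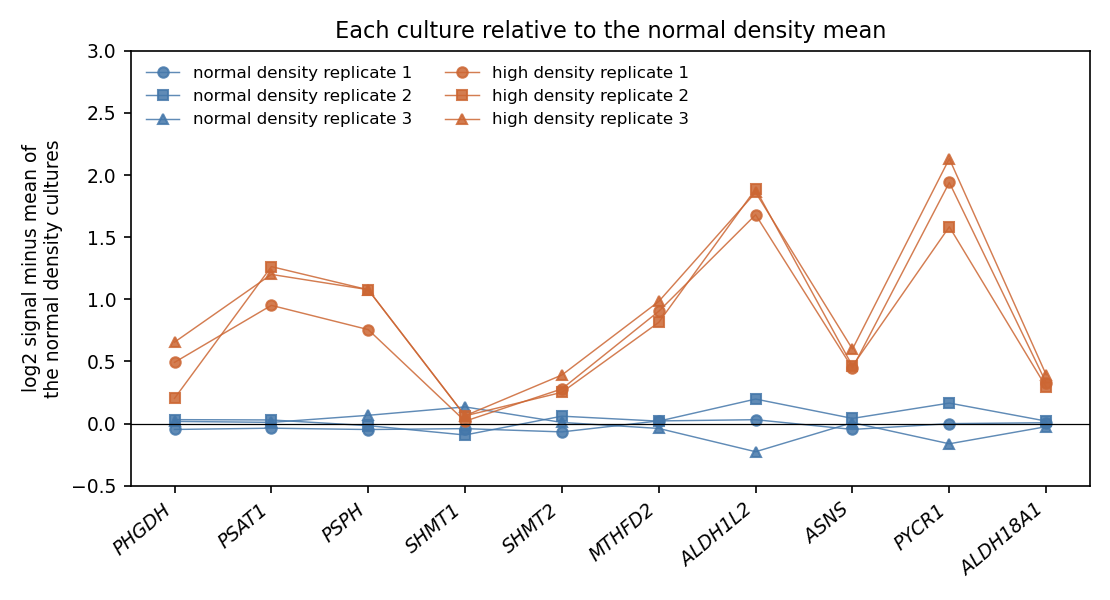
Log2 signal of each of the 6 cultures minus the mean of the normal density cultures, for the 10 genes in pathway order, where lines join the values of one culture. The high density cultures peak at ALDH1L2 and PYCR1 and come closest to the normal density cultures at SHMT1, and replicate 2 (squares) is lowest at PHGDH and highest at PSAT1.

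To compare partners of a branch, the log2 difference between a pair of genes was taken within each array, and its shift between the densities is given as a description. The 9 pairs were chosen after the changes of the single genes had been seen, so the shifts restate those changes within arrays and have no test of their own. In the serine branch PSAT1 gained 0.69 and PSPH 0.52 on PHGDH, although the SD of these differences at high density, 0.33 and 0.32, were large beside those at normal density, 0.01 and 0.05. Without high density replicate 2 the gains were 0.50 and 0.34. In the proline branch PYCR1 gained 1.55 on ALDH18A1, with SD of 0.14 and 0.23.

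Within the folate pathway MTHFD2 gained 0.59 on SHMT2, with SD of 0.08 and 0.03, and ALDH1L2 gained 0.91 on MTHFD2. The mitochondrial enzymes also shifted against MTHFD1, the cytosolic enzyme with several folate activities, with gains of 1.29 for MTHFD2 and 0.69 for SHMT2. Beside related enzymes, PYCR1 gained 1.75 on its cytosolic relative PYCR3 (listed as PYCRL), and MTHFD2 gained 1.11 on its relative MTHFD2L.

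Of 74 further genes of the same pathways, in 6 lists, 73 were found with 75 transcript clusters. Among these, 7 were called higher and 2 lower, which is to be read against 3.97% and 3.51% of the table. Their median change was 0.07, close to that of all transcript clusters. At any fold, 15 of the 75 were past the FDR threshold with a higher and 10 with a lower signal, against 8.64% and 10.4% of the table.

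The use of serine and glycine was represented by 19 transcript clusters, of which 3 were called higher and 1 lower, compared with 3.97% and 3.51% of the table. At any fold, 8 of the 19 passed the FDR threshold with a higher and 1 with a lower signal, compared with 8.64% and 10.4% of the table. In 12 every high density culture was above every normal density culture, against 17.8% of the table. The order was reversed in 2, against 19.5%. The called increases were those of the transsulfuration enzymes, which make cysteine from homocysteine and serine. CBS (12684618), which joins serine to homocysteine, rose from 5.30 ± 0.07 to 6.54 ± 0.31 (SD, n = 3), by 1.23 (SE 0.15, adjusted p = 0.00136 by limma). CTH, which releases cysteine, is covered by 2 transcript clusters, and both were called, with changes of 1.57 for 12846849 and 1.19 for 12882714. SPTLC3 (12713456), a subunit of the serine palmitoyltransferase that starts sphingolipid synthesis, fell from 7.17 ± 0.09 to 5.44 ± 0.23, with a log2 change of −1.72 (SE 0.12, adjusted p = 1.43e-04 by limma). The glycine decarboxylase gene GLDC (12889669) was at 7.64 ± 0.07 and 7.66 ± 0.04, a change of 0.02 with an interval from −0.14 to 0.18.

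Of the 6 other mitochondrial folate genes, 1 was called higher and 0 lower, compared with 3.97% and 3.51% of the table. It was MTHFD1L (12896461), which makes formate from formyltetrahydrofolate. Its signals were 8.03, 8.06 and 7.95 at normal density and 8.72, 8.75 and 8.61 at high density, and MTHFD1L rose by 0.68 (SE 0.07, adjusted p = 8.83e-04 by limma). MTHFD2L was at 5.10 ± 0.03 and 4.89 ± 0.20, little above the background level. The mitochondrial folate carrier SLC25A32, found by its accession, had a change of −0.20 (limma's adjusted p = 0.269), which was −0.11 without normal density replicate 3 and −0.28 without normal density replicate 1, and MTFMT, the formyltransferase for the initiator tRNA, one of 0.10. DMGDH and SARDH were below the background level in both groups.

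In the 15 transcript clusters of the cytosolic folate list 1 was called higher and 0 lower, compared with 3.97% and 3.51% of the table. At any fold, 3 passed the FDR threshold with a lower signal, compared with 10.4% of the table. Among them were MTHFD1 (12690641), from 6.70 ± 0.06 to 6.32 ± 0.08, and the purine synthesis enzyme ATIC (12775434), from 8.55 ± 0.05 to 8.05 ± 0.08 (SD, n = 3), which was named after its values were seen. Their changes were −0.39 and −0.50. At an unadjusted p below 0.05, 6 genes of the list were lower, compared with 17.2% of the table, among them thymidylate synthase TYMS with −0.24 (limma's adjusted p = 0.0867), and the methods' t-test called 0 lower. The called increase was MTHFS with 0.62, whose call was lost without high density replicate 2, where the change was 0.54.

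No gene of the methionine cycle was called, neither by limma nor in the methods' t-test. At an unadjusted p below 0.05, 1 of its 9 transcript clusters was higher and 3 were lower, compared with 15.1% and 17.2% of the table. Of the 3, 2 passed the FDR threshold, against 10.4% of the table with a lower signal. They were MAT2A, which makes S-adenosylmethionine, with −0.44 (adjusted p = 0.00732 by limma) and the methionine synthase gene MTR with −0.42 (adjusted p = 0.0296 by limma). Both were named after their values were seen. Of the 14 transcript clusters for the supply of aspartate and glutamine, 1 was called higher and 1 lower, compared with 3.97% and 3.51% of the table. The mitochondrial alanine aminotransferase GPT2 (12754174) rose by 0.74 (SE 0.07, adjusted p = 4.95e-04 by limma), and the mitochondrial aspartate carrier SLC25A12 (12778525) fell by 0.60. The call of SLC25A12 was lost when normal density replicate 3, high density replicate 1 or high density replicate 3 was left out, with changes of −0.56, −0.53 and −0.55. At any fold, 3 of the 14 passed the FDR threshold with a higher and 3 with a lower signal, compared with 8.64% and 10.4% of the table. Among the lower ones was the glutamine synthetase gene GLUL with −0.56 (adjusted p = 0.00117 by limma). GLUL stayed below the fold threshold and was named after its values were seen.

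Among the 12 transcript clusters for other enzymes around proline, 1 was called higher and 0 lower, compared with 3.97% and 3.51% of the table. The called one was P4HA3 (12731077), a subunit of a collagen prolyl hydroxylase, which rose by 0.83 (SE 0.08, adjusted p = 4.29e-04 by limma). PYCR3 (12722282) was at 8.67 ± 0.04 and 8.81 ± 0.17 (SD, n = 3). Its change of 0.13 had an interval from −0.09 to 0.36, which ends below the fold threshold, and the groups overlapped. The change of PYCR3 was 0.08 when high density replicate 3 was left out and 0.23 when replicate 2 of that group was.

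**Figure D4:**
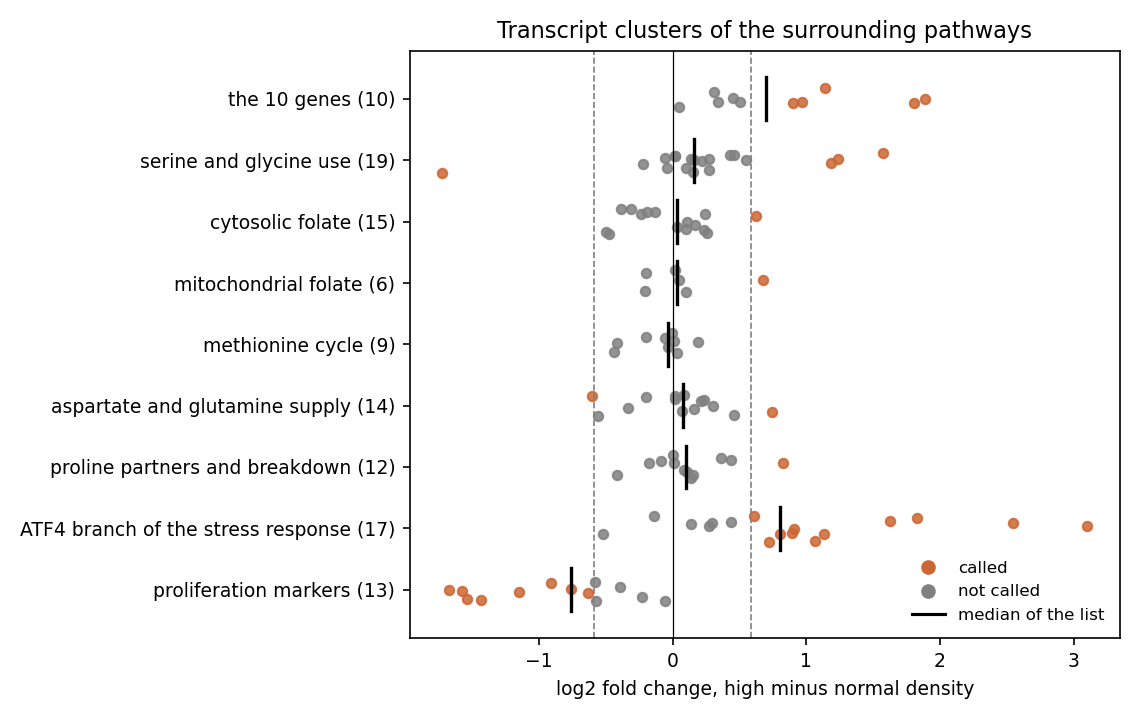
Log2 fold changes of single transcript clusters in the 10 genes, in 6 lists of pathway neighbours, in the ATF4 branch of the stress response and in proliferation markers, with the number of transcript clusters in brackets, the list median as a black bar and the fold change of 1.5 dashed on both sides. The medians of the 6 neighbour lists lie between −0.03 and 0.16, those of the 10 genes and of the ATF4 branch at 0.70 and 0.80, and that of the proliferation markers at −0.76.

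In the ATF4 branch of the stress response, 11 of 17 transcript clusters were called higher and 0 lower, compared with 3.97% and 3.51% of the table, with a median change of 0.80. The methods' t-test called 10 higher. ATF4 itself (12858656) had signals of 8.62, 8.85 and 8.73 in the normal and of 9.53, 9.54 and 9.54 in the high density cultures, and rose by 0.80 (SE 0.08, adjusted p = 5.51e-04 by limma). The largest changes of the list were those of the glutathione-degrading enzyme gene CHAC1 with 3.10, of STC2 with 2.55 and of TRIB3, an inhibitor of ATF4 activity, with 1.83. The normal density signals of these 3 genes did not reach the background level, so the size of their rises is uncertain. In 15 of the 17 every high density culture was above every normal density culture, against 17.8% of the table. The order was reversed in 2, against 19.5% of the table, the kinase genes EIF2AK2 and EIF2AK1, both named after their values were seen. EIF2AK2 passed the FDR threshold with −0.52 (adjusted p = 0.0263 by limma), against 10.4% of the table with a lower signal. EIF2AK1 did not, with −0.14 (adjusted p = 0.180 by limma). The members of the list were written from general knowledge and overlap in function with the genes described here, and no regulator was tested.

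Markers of proliferation moved the other way. Of 13 transcript clusters 8 were called lower and 0 higher, compared with 3.51% and 3.97% of the table, with MKI67 at −1.57 and TOP2A at −1.67. At an unadjusted p below 0.05, 12 were lower and 0 higher, where the table had 17.2% and 15.1%, and the methods' t-test called 8 lower. The mean signal of the list was between 6.56 and 6.73 in the normal and between 5.69 and 5.84 in the high density cultures. Whether this has a part in the changes of the folate genes was not tested.

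All 10 granulosa cell markers were above the background level at normal density. Of these, 6 were called lower and 0 higher, compared with 3.51% and 3.97% of the table. Among the 6 were FSHR with −2.21, INHA with −2.16 and CYP19A1 with −2.80. The 4 that were not called were AMH with −0.18, HSD3B1 with −0.28, NR5A1 with −0.28 and GATA4, which was higher by 0.12. CYP19A1, the aromatase gene of estradiol synthesis, was at 3.71 ± 0.23 at high density and did not reach the background level, so that its fall has an uncertain size. The mean signal of the 10 markers was between 8.14 and 8.34 at normal and between 7.13 and 7.21 at high density. Of the 2 theca cell markers, 1 was called higher and 0 lower, compared with 3.97% and 3.51% of the table. CYP17A1 was below the background level in both groups. INSL3 was the called one and rose from 7.20 ± 0.06 to 9.02 ± 0.15 (SD, n = 3), by 1.82 (SE 0.09, adjusted p = 3.88e-05 by limma). Markers of leukocytes (5), of endothelial cells (4 of 5, VWF being the exception) and of red blood cells (3) were below the background level in both groups. Of all 13 markers in these lists, VWF included, 0 were called by limma or by the methods' t-test. Limma called 3.97% of the table higher and 3.51% lower. At an unadjusted p below 0.05, 1 leukocyte and 1 endothelial marker were lower, compared with 17.2% of the table. At that p, 1 endothelial and 1 red blood cell marker were higher, compared with 15.1% of the table. The lower endothelial marker, TEK, passed the FDR threshold with −0.36 (adjusted p = 0.0303 by limma), against 10.4% of the table with a lower signal. TEK was named after its values were seen. The part of any of these marker lists in the changes described here was not tested. The mean signals of these 3 lists were between 3.14 and 3.30 at normal and 3.11 and 3.13 at high density for leukocytes, between 3.10 and 3.17 and 3.11 and 3.18 for endothelial cells, and between 2.61 and 2.67 and 2.71 and 2.87 for red blood cells.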

How the data were processed

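RNA of 6 GC cultures was hybridized to gene-level bovine expression arrays, 1 per culture. The deposited table holds log2 signals per transcript cluster and culture, which the authors made in Expression Console with the RMA procedure (background reduction, normalization and gene-level summary). The genome build is not given in the sources used here. The table has 0 columns of other samples and was used whole, without further normalization.

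The 10 genes, the companion lists and the pairs of genes were chosen with earlier results of these data known. Transcript clusters were matched by symbol, by an older symbol or by RefSeq accession. A model without covariates was fitted (lmFit, eBayes; limma 3.58.1, R 4.3.3) to all 26773 transcript clusters with Benjamini-Hochberg adjustment. The thresholds, a fold change above 1.5 with p and FDR below 0.05, are those of the methods, whose analysis of variance is called the methods' t-test here. The function was tested on simulated data. All 10 genes are named, and of each list at most 4 called transcript clusters per direction, with fixed partners such as MTHFD1 and PYCR3. Some partners are not reported here. ATIC, MAT2A, MTR, GLUL, EIF2AK1, EIF2AK2 and the cell type markers that were not called fall outside this rule.

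Alternatives were the methods' t-test, an FDR below 0.01, a filter at the background level, leaving out each culture, array weights, a second quantile normalization, median centring, the replicate block and variances with trend and robust estimation. The gene pairs and the count at any fold were added after seeing the data. No promoter or protein sequences were used here. Figures were drawn with matplotlib 3.10.9.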

Additional observations from a re-analysis of the deposited data

How the results depend on the processing

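The 5 called genes of the group were called higher under all alternatives, the leave-one-out settings included, and none of the other 5 was called under any. The number of the 10 genes past the FDR threshold at any fold, 9, was 8 with the methods' t-test, 7 with the replicate block and 6 at an FDR below 0.01, and from 6 to 9 when single cultures were left out. Besides SHMT1, PHGDH did not pass with the methods' t-test. With the replicate number as a block PHGDH and SHMT2 did not pass, and at an FDR below 0.01 PHGDH, SHMT2 and ALDH18A1 did not. Same-numbered cultures did not deviate together (correlations of 0.05, −0.05 and −0.04 over all transcript clusters), so the numbers were not taken as pairs. The block called 1066 transcript clusters of the table higher and 954 lower, beside 1064 and 941, and changed no call of a named gene.

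Of the companion genes, 2 were called lower, but 1 with the methods' t-test, with the second quantile normalization and at an FDR below 0.01, and from 1 to 2 when single cultures were left out. SLC25A12 was the gene lost. Median centring called 3 lower. MTHFS was not called with array weights (0.57) or median centring (0.58). Directions turned for genes that were not called. DMGDH changed by −0.0032 with array weights, −0.024 with median centring and −0.0084 with the second quantile normalization, and GLDC by −0.024 with median centring. With single cultures left out DMGDH was between −0.030 and 0.061, GLDC between −0.015 and 0.049, MTFMT between −0.0060 and 0.198, SARDH between −0.047 and 0.112 and MTHFD2L between −0.32 and −0.14. The causes were not tested. Signals near the background level limit the changes of SHMT1 and MTHFD2L.
The planned search for promoter motifs was not run, since no promoter sequences were used here.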
